A study of Mus musculus with 12 samples.

Results

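The Hox genes encode homeodomain transcription factors that give cells their position along the head-to-tail axis. The mouse has 4 clusters of them, and within a cluster the genes are numbered from 1 to 13 in the order of their positions, so genes of the same number in different clusters are paralogs. Low numbers are activated first and act in the hindbrain and neck, middle numbers in the trunk, and high numbers in the lumbar region, tail, limbs and urogenital tract. In embryonic stem cells Polycomb complexes hold the clusters silent or nearly so. Retinoic acid opens them from the low-numbered end, while Wnt signalling and Cdx factors act on the trunk and posterior genes. The members were all genes whose symbol is Hox, a cluster letter from a to d and a number from 1 to 13 with nothing after it. There were 39 of them among the 20972 named genes on the array, measured by 44 probes. Cluster A lies on chromosome 6 with 11 members, cluster B on chromosome 11 with 10, cluster C on chromosome 15 with 9, and cluster D on chromosome 2 with 9.

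RNA of a mouse embryonic stem cell line was hybridised to 12 one-colour Agilent arrays, 3 for each of 4 groups. Both wild-type and Nat1-null cells were grown in LIF alone and in 2i+LIF, so LIF and the gelatin-coated plates were common to all groups. LIF is the cytokine that sustains mouse embryonic stem cells, while 2i blocks the kinases MEK and GSK3 with a pair of small molecules, and blocking GSK3 raises the targets of Wnt. The mutated gene, Nat1, is read as Eif4g2 under a former name, a translation factor of the eIF4G family. The labels name neither the allele nor the number of clones, nor do they say whether replicates were separate cultures. The p-values therefore measure the spread between these samples, which may be technical.

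Values are log2 signals with the 75th percentile of the array set to 0, as mean ± SD over 3 arrays, and a level of one gene cannot be set against that of another because each probe has its own brightness. On each array 49.8% to 66.3% of gene spots were well above background, a mark set by the scanner program. Arrays of a group correlated at 0.9876 or more across probes. Wild-type LIF arrays were on slide 1, wild-type 2i arrays on slide 2 and all Nat1-null arrays on slide 3. Only LIF against 2i in Nat1-null cells was thus compared within a slide, and the other differences cannot be told apart from the slide. On slide 3, Nat1-null LIF replicates 1 and 2 were in row 1, and Nat1-null LIF replicate 3 and all Nat1-null 2i arrays in row 2. The medium in Nat1-null cells can therefore hardly be told apart from the slide row. Replicate 3 of Nat1-null LIF and all 3 Nat1-null 2i arrays had negative-control means outside the range the scanner program accepts. Eif4g2 stood at 4.49 ± 0.05 and 4.20 ± 0.10 in wild-type cells in LIF and 2i and at 1.28 ± 0.04 and 1.31 ± 0.10 in the Nat1-null cells. All 13 stem cell markers examined were above background on every array. Of 18 fibroblast markers, 16 and 10 were above background on all wild-type arrays in LIF and 2i, and 9 and 7 on all Nat1-null arrays in these media.

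Cluster A carries both kinds of response described below, so the 250 bases before the start of 4 of its genes are shown. Hoxa2 fell in 2i in wild-type cells, and Hoxa7, Hoxa10 and Hoxa13 rose. The sequences are RefSeq's, build GRCm38.p6, minus strand, at chr6:52164832-52165081, chr6:52218574-52218823, chr6:52240855-52241104 and chr6:52260881-52261130, and capitals mark CG dinucleotides, where Polycomb-bound CpG islands are dense. Hoxa10 has a pair of annotated starts. The window shown lies outside annotated genes, while the other lies within Hoxa10 itself and holds 20 CG dinucleotides.
Hoxa2: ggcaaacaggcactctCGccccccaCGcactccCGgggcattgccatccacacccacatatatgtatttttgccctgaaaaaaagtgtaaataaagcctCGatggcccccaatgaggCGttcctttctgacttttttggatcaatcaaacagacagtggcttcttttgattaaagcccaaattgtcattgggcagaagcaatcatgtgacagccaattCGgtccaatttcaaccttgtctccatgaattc
Hoxa7: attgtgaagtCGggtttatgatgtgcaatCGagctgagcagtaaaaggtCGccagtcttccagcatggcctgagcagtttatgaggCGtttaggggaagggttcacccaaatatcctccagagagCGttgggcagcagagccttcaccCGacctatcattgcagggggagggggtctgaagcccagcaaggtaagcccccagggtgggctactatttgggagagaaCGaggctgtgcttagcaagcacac
Hoxa10: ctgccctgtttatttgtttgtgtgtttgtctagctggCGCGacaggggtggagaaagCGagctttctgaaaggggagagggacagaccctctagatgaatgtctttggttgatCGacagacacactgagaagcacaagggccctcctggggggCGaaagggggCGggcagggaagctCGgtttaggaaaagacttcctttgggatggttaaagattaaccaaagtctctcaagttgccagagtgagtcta
Hoxa13: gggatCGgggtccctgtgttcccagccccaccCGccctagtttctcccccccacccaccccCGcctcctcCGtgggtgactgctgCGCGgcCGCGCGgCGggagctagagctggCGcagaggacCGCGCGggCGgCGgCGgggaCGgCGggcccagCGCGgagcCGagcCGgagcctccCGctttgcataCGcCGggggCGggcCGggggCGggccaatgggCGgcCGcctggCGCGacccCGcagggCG
The Hoxa13 window held 35 CG dinucleotides, against 6 in Hoxa2, 7 in Hoxa7 and 7 in the Hoxa10 window shown. RefSeq's promoter table held 24 windows for 22 of the 39 members, with a median of 12.5 CG dinucleotides, against 6 over all 32851 windows of that length. Windows of paralogs 1 to 8 had a median of 12 and those of paralogs 9 to 13 a median of 13.

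Letters recognised by 4 kinds of factor were searched in these windows on both strands, and 1 pair of matches to different motifs overlapped. The CDX letters TTTATG occurred in 20.8% of the Hox windows and 10.8% of all windows. The Hox windows with them were of Hoxa7, Hoxb8, Hoxd3, Hoxd4 and Hoxd11. The Hoxa7 and Hoxb8 windows held 2 matches each, those of Hoxa7 beginning 236 and 173 bases before the start. The TCF/LEF letters CTTTGNA occurred in 20.8% of Hox windows against 15.7% of all. The retinoic acid receptor half-site AGGTCA was found in 25% against 14%, in the windows of Hoxb4, Hoxc4, Hoxd3, Hoxd4, Hoxd8 and Hoxd10. The PBX-HOX letters TGATTNAT were found in 8.3% against 2.8%. These are descriptions of short windows and of few genes.

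Of the 39 members, 33 were tested because some group had a probe of theirs well above background on each of its 3 arrays. All 11 members of cluster A and all 10 of cluster B passed, with 8 of 9 in cluster C and 4 of 9 in cluster D. A member that passed only through the group where it was bright had to be lower elsewhere. Counts of calls below are therefore read beside the same count over all 24457 genes tested. Of the 6 that did not pass, Hoxc8, Hoxd10 and Hoxd12 were not well above background on any array. Hoxd1 was above background on 1 of 3 wild-type 2i arrays, Hoxd3 on 2 of 3 wild-type LIF arrays, and Hoxd9 on 2 of 3 wild-type 2i and 1 of 3 Nat1-null 2i arrays. The number of members above background on all arrays of a group was 25 and 26 for wild-type cells in LIF and 2i, and 19 and 22 for the mutant cells. The share of probes above background in this way was lower in the mutant cells too. It was 58.7% and 54.6% for wild-type cells in LIF and 2i, and 49.3% and 46.5% for the mutant cells. Of the members, 12 were above background on all 12 arrays.

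The order of the 4 groups ran in opposite ways along the clusters. Among the 10 tested members numbered 1 to 4, the wild-type LIF mean was the highest of the 4 in 9. Among the 13 numbered 9 to 13, the wild-type LIF mean was the lowest in 10 and the Nat1-null 2i mean the highest in 10. Members 5 to 8 were mixed, with wild-type LIF highest in 5 of 10 and lowest in 2. These orders were not counted over all genes tested. Hoxb1, Hoxb3, Hoxb6, Hoxb8, Hoxc5 and Hoxd4 passed the background filter only through wild-type LIF, so their place was partly set by the filter. Neighbours in these orders often lay within the spread of the arrays, and the tests of each difference follow.

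**Figure D1:**
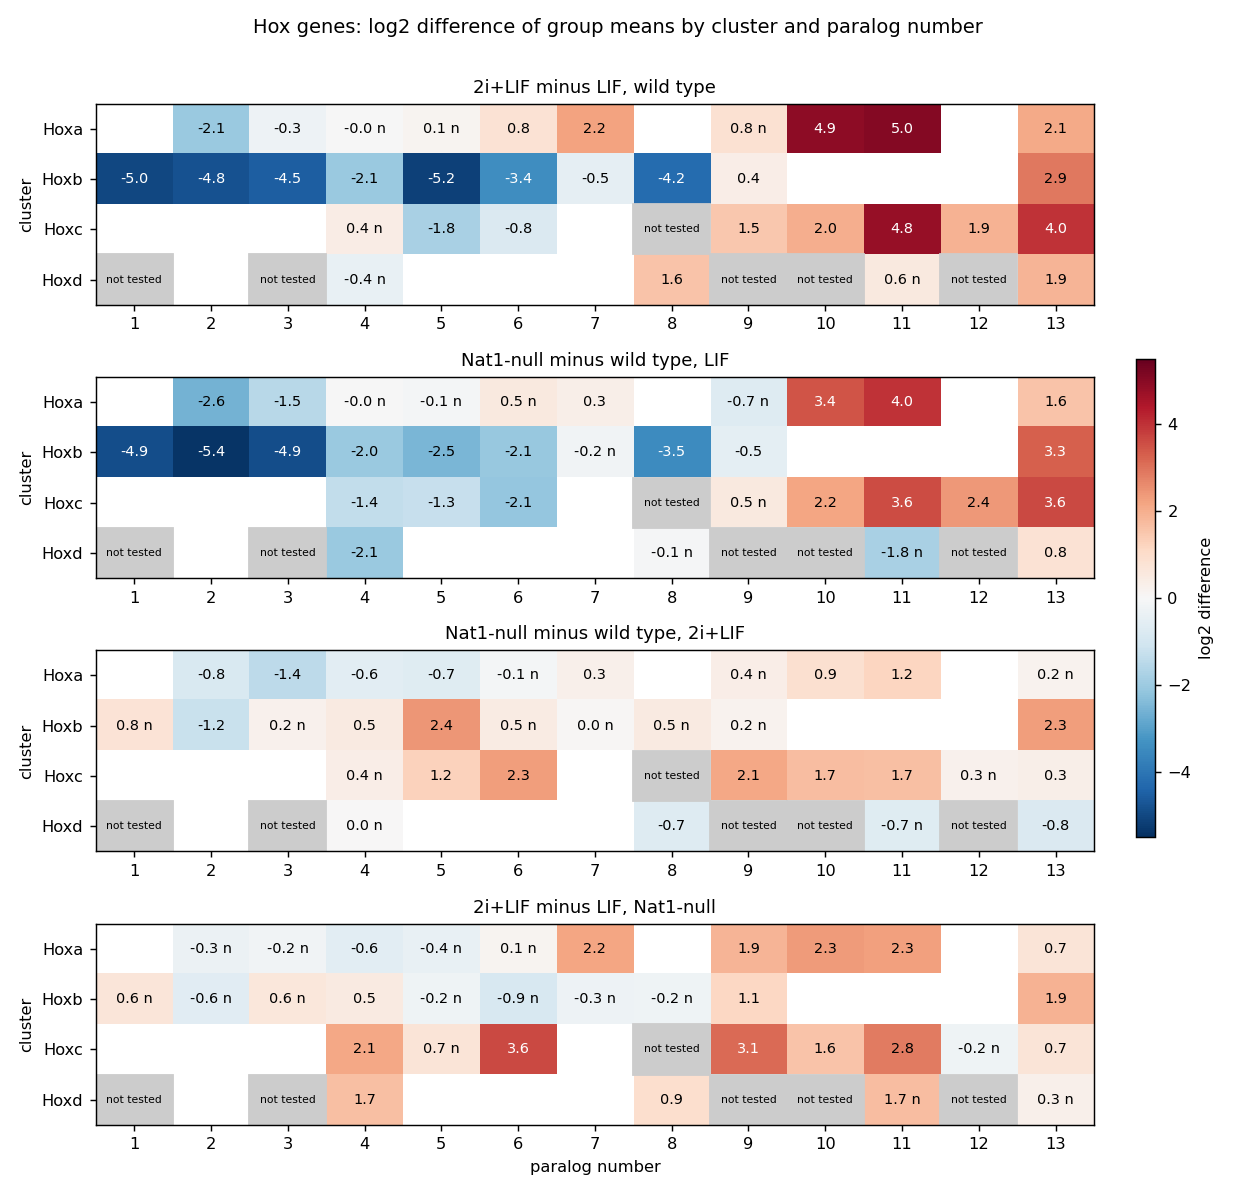
Log2 difference of 38 Hox genes in the 4 comparisons, with clusters as rows and paralog numbers as columns; red is higher, blue is lower, n marks a difference that did not pass adjusted p below 0.05, grey was not tested and white has no value shown. In wild-type cells 2i gave 13 lower calls among numbers 1 to 8, 1 of them not drawn, and none among 9 to 13, where 11 were higher.

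The first comparison asked what adding 2i did in wild-type cells. Anterior and trunk genes of cluster B fell together, and posterior genes of clusters A, B and C rose. Of the 33 members, 27 passed limma's test at a Benjamini-Hochberg adjusted p below 0.05, 14 higher and 13 lower, which is 81.8% where 62.2% of all genes tested passed, 35.0% higher and 27.2% lower. Differences were large: their median absolute size was 1.91 on the log2 scale against 0.43 over all genes, and 21 of the 33 passed with at least a 2-fold change, 12 higher and 9 lower, against 19.2% of all genes. The split followed the paralog number. Of members 1 to 4, 0 rose, 7 fell and 3 did not pass. Of members 5 to 8, 3 rose, 6 fell and 1 did not pass. Of members 9 to 13, 11 rose, 0 fell and 2, Hoxa9 and Hoxd11, did not pass. In RNA from many cells, fewer cells that carry a transcript and less of it per cell cannot be told apart.

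Cluster B held the deepest falls, and 8 of its 10 members fell. Hoxb1, which sets the identity of a hindbrain segment, read -2.18, -2.11 and -2.17 on the wild-type LIF arrays and -7.45, -7.22 and -6.78 on the wild-type 2i arrays. The 2i arrays were all at background, which makes the fall at least 10.3-fold (fitted log2 difference -5.00, adjusted p = 6.8e-07, limma). Hoxb2, also a hindbrain gene, read 1.16, 1.16 and 1.32 in LIF and -3.44, -3.76 and -3.55 in 2i. It stayed above background on all 6 of these arrays, so its fall of 4.79 ± 0.23 (SE) is a measured one (27.7-fold, adjusted p = 1.3e-07). Hoxb3 read -2.19, -2.55 and -2.27 in LIF and was at background in 2i, at least 9.09-fold lower. Hoxb4, known for expanding blood stem cells, read 0.75, 0.69 and 0.91 in LIF and -1.18, -1.46 and -1.19 in 2i, lower by 4.17-fold.

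The trunk genes of cluster B went the same way. Hoxb5 read -2.17, -2.19 and -2.13 in LIF and lay at background in 2i, at least 10.3-fold lower. Hoxb6 was at least 6.83-fold lower, from -2.92, -2.64 and -2.62. Hoxb8, a regulator of trunk pattern and of myeloid progenitors, was at least 6.72-fold lower, from -2.84, -2.85 and -2.63 in LIF. Hoxb7 lay apart from these neighbours, with -0.71, -0.66 and -0.42 in LIF against -0.97, -1.11 and -1.22 in 2i. Its difference of -0.50 passed, but not without wild-type LIF replicate 2 or 3 or wild-type 2i replicate 2 or 3, when it lay between -0.54 and -0.42 and its adjusted p reached 0.111. In cluster A, Hoxa4 had a difference of -0.03 that did not pass. Hoxa3, needed for thymus and parathyroid, fell by 0.29. Hoxa2, a regulator of branchial arch identity, read -0.84, -0.93 and -0.78 in LIF and -2.37, -3.14 and -3.22 in 2i, a fall of 2.06.

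**Figure D2:**
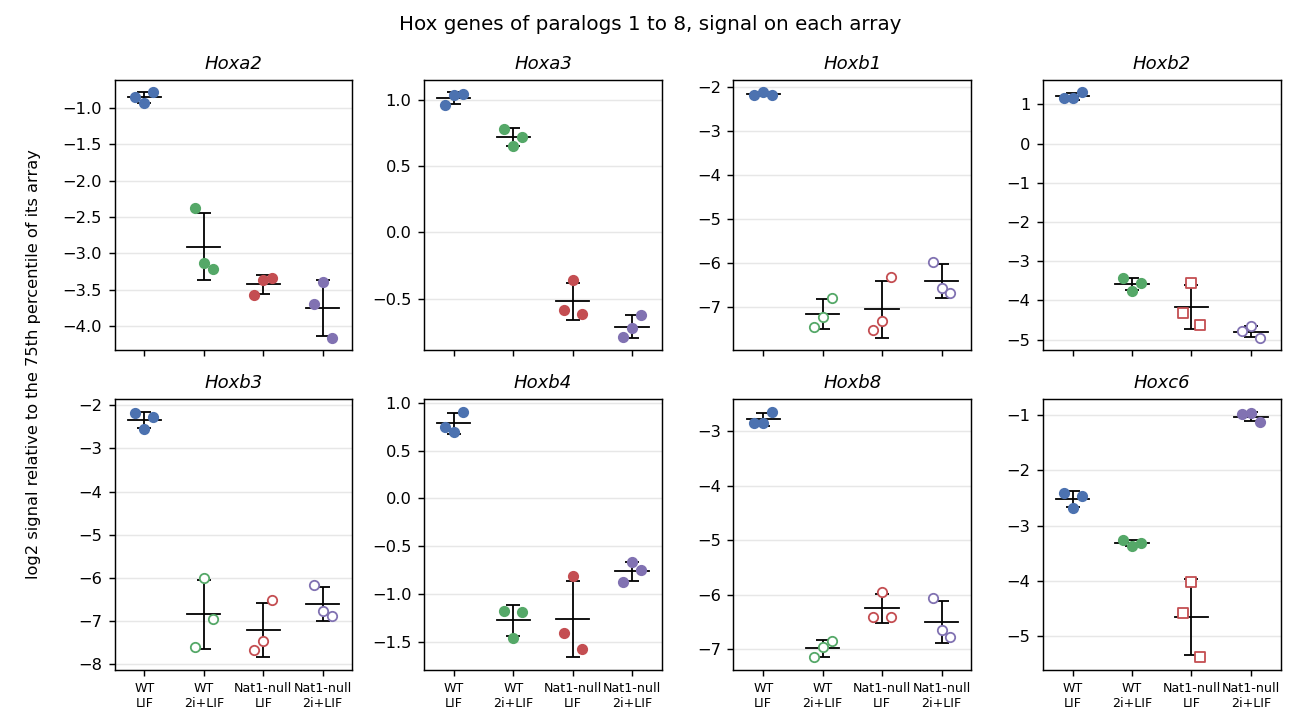
Log2 signal, with the 75th percentile of the array at 0, for Hox genes numbered 1 to 8 on each array, with bars for mean and SD of 3 arrays; filled circles are groups above background on all 3 arrays, open squares on 1 or 2 and open circles on none. The 3 wild-type LIF points of Hoxa2, Hoxa3, Hoxb1, Hoxb2, Hoxb3, Hoxb4 and Hoxb8 lie above all points of the other 3 groups.

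Posterior genes moved the other way. Hoxa10, a gene of the uterus and lumbar region, was at background on the wild-type LIF arrays and read -1.31, -1.11 and -1.25 in 2i, at least 17.2-fold higher. Hoxa11, which patterns the forearm and the uterus, read -2.17, -1.97 and -1.97 in 2i and was at background in LIF, at least 9.77-fold higher. Hoxc11 behaved alike, from background to -2.26, -2.23 and -2.10, at least 8.76-fold higher. All 3 had adjusted p of 3.1e-07 or less (limma).

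Hoxc13, a gene of hair and nail, was above background on every array and had the smallest SE of the tested members. It read -3.29, -3.32 and -3.32 in LIF and 0.74, 0.65 and 0.57 in 2i, a rise of 3.97 ± 0.06 (15.6-fold, adjusted p = 1.6e-10). Hoxb13, known from prostate and tail, read -2.38, -2.13 and -2.26 in LIF and 0.71, 0.41 and 0.81 in 2i, a rise of 2.90. Hoxd13, which shapes digits, read -2.85, -2.76 and -3.20 in LIF and -1.06, -1.01 and -1.11 in 2i, a rise of 1.87. All 4 genes numbered 13 rose, Hoxa13 by at least 1.93-fold from background.

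Some members did not follow their paralog number. Hoxa7, a trunk gene, read -1.21, -1.01 and -1.13 in LIF and 1.08, 1.10 and 1.09 in 2i, the only rise beyond 2-fold among members 1 to 8 besides Hoxd8, which rose by 1.58. Hoxc5, Hoxc6 and Hoxc9 did go with the split. Hoxc5 fell by at least 2.74-fold to background and Hoxc6 by 0.79, while Hoxc9, a trunk gene of the spinal cord, rose 2.82-fold. The call for Hoxa6 (0.80) ended without wild-type LIF replicate 2 or any wild-type 2i replicate, with values of 0.44 to 0.85. That for Hoxb9 (0.38) ended without replicate 1 or 3 of wild-type LIF or 1 or 2 of wild-type 2i, with 0.31 to 0.37. That for Hoxc6 (-0.79) ended without replicate 1 or 3 of wild-type LIF or any of wild-type 2i, with -0.82 to -0.74. Hoxa9, a gene of leukaemia and blood stem cells, had a difference of 0.82 that did not pass and rested on 1 array. It read -4.11, -4.51 and -2.16 in LIF and -2.38, -2.88 and -3.05 in 2i, and passed at 1.54 (adjusted p = 2.8e-04) without wild-type LIF replicate 3.

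Summed markers of several cell types differed in this comparison. The summed level of 18 fibroblast markers, on a linear scale in units of the 75th percentile, was 353 to 377 on the wild-type LIF arrays and 44.8 to 50.6 on the wild-type 2i arrays. That of 8 trophoblast markers was 178 to 202 against 23.6 to 26, and that of 9 neural progenitor markers 28.8 to 29.8 against 9.58 to 10.75. Stem cell markers rose, at 554 to 577 against 1004 to 1090. The sum of mesoderm and primitive streak markers was 9.15 to 9.37 against 11.97 to 13.81. Of the 8 of these markers that were tested, however, 2 passed as higher and 3 as lower, with a median log2 difference of -0.46. Primitive endoderm markers stood at 1.95 to 2.64 against 1.61 to 1.725. Of the markers, Postn, Col6a1, Fabp7 and Hand1 were above background on all wild-type LIF arrays and on no wild-type 2i array, and Lum was at background on both. Hand1 is in both the trophoblast and the mesoderm list, and the trophoblast marker Cdx2 was above background on 1 wild-type LIF array. The part of these cell types in the fall of the anterior Hox genes was not tested.

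The next comparison asked what loss of Nat1 did in LIF, with the same wild-type LIF arrays as the baseline. Anterior genes were lower and posterior genes higher in Nat1-null cells. Of 33 members, 25 passed, 10 higher and 15 lower (75.8%, against 66.8% of all genes tested, with 33.9% higher and 32.9% lower). Members 1 to 4 gave 9 falls and 0 rises, members 5 to 8 gave 5 falls and 1 rise, and members 9 to 13 gave 9 rises and 1 fall. The median absolute difference was 2.05, against 0.50 over all genes, and 8 members were higher and 14 lower by at least 2-fold, against 26.0% of all genes in either direction.

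Hoxb2 read -4.32, -3.56 and -4.62 in Nat1-null LIF, a fall of 5.38 ± 0.23 from wild-type LIF (adjusted p = 2.8e-08). Only 2 of these Nat1-null LIF arrays were above background for Hoxb2. Hoxb1 was at background on all Nat1-null arrays of either medium, at least 7.54-fold lower in LIF, and so was Hoxb3, at least 6.63-fold lower. Hoxb4 read -1.40, -0.82 and -1.57 and was 4.14-fold lower. Hoxb8 was at least 4.90-fold lower.

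Of the 4 members of cluster A numbered 1 to 4, 3 were lower, and Hoxa4 had a difference of -0.04 that did not pass. Hoxa3 read 0.96, 1.03 and 1.04 in wild-type LIF against -0.58, -0.36 and -0.61 in Nat1-null LIF, lower by 1.53, and Hoxa2 was lower by 2.58. The single tested low-numbered members of clusters C and D were lower too, Hoxc4 by 1.35 and Hoxd4 by at least 2.48-fold, with Hoxd4 at background on all 3 Nat1-null LIF arrays. Hoxc6 was lower by 2.13, with only 2 of the 3 Nat1-null LIF arrays above background. Hoxc5 passed at -1.25, but its adjusted p reached 0.0678 without wild-type LIF replicate 1 or 2 or Nat1-null LIF replicate 3, when the difference lay between -1.25 and -0.73.

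At the posterior end Hoxc13 read 0.26, 0.38 and 0.26 in Nat1-null LIF, 3.61 ± 0.06 above wild-type LIF (adjusted p = 1.6e-10). Hoxb13 read 0.59, 1.76 and 0.72, higher by 3.28, with replicate 2 well above the other arrays. Hoxa10 read -2.94, -2.37 and -2.74 and was at least 6.26-fold higher, Hoxa11 -3.37, -2.82 and -3.15, at least 4.64-fold, and Hoxc11 -3.33, -3.18 and -3.60, at least 3.87-fold. Hoxc12 was at least 3.87-fold and Hoxc10 at least 2.49-fold higher. Hoxa7 was higher by only 0.31, and Hoxb9 was the 1 posterior member that passed as lower, by 0.55. Hoxd11, above background on 1 wild-type LIF array and no Nat1-null LIF array, had a difference of -1.79 that did not pass (adjusted p = 0.0616). It passed without wild-type LIF replicate 3, Nat1-null LIF replicate 2 or Nat1-null 2i replicate 1 or 3 (adjusted p 0.0307 to 0.0489). The posterior rises were accompanied by fibroblast markers at a summed 23.4 to 27.1, trophoblast markers at 10.9 to 12.5 and neural progenitor markers at 6.23 to 8.24, all below wild-type LIF, and by stem cell markers at 977 to 1141 against 554 to 577. The part of these cell types in the Hox differences was not tested. These differences share the wild-type LIF arrays with those of 2i above and are not independent of them.

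**Figure D3:**
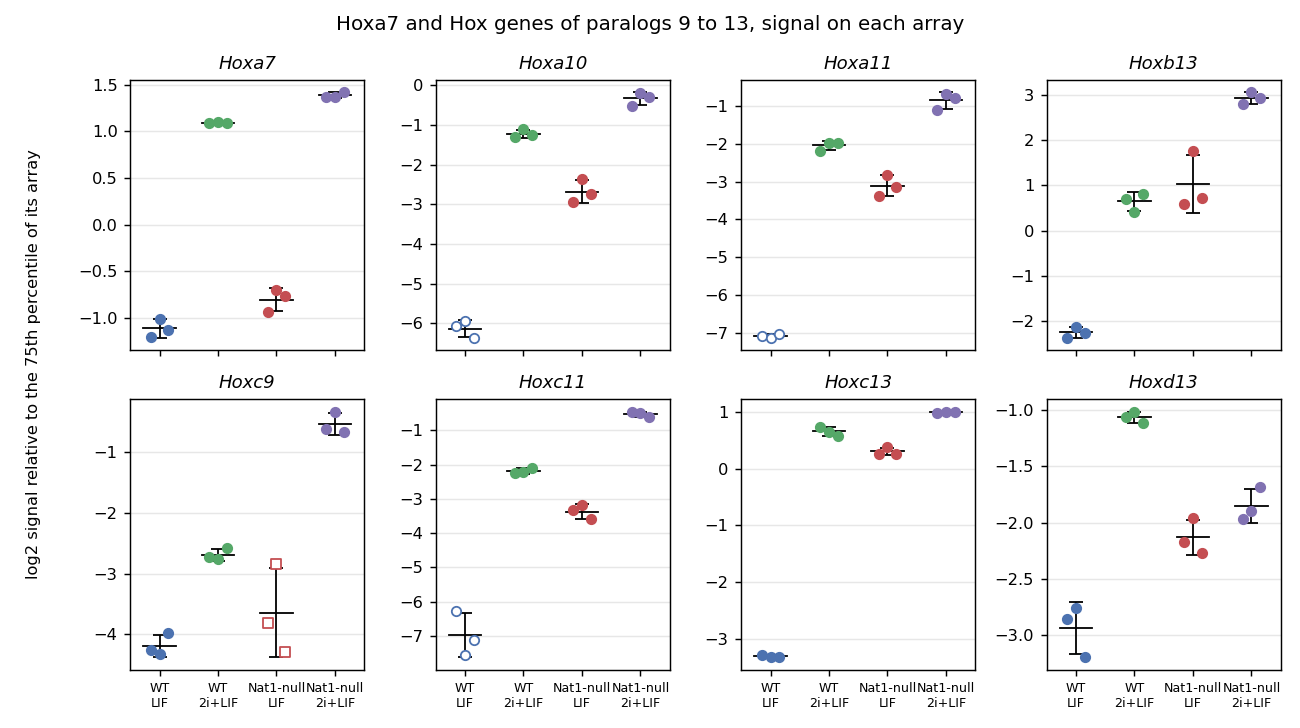
Log2 signal, with the 75th percentile of the array at 0, for Hoxa7 and posterior Hox genes on each array, with bars for mean and SD of 3 arrays and the same filled and open symbols for arrays above background. Hoxa10, Hoxa11 and Hoxc11 are at background in wild-type LIF and highest in Nat1-null 2i, and Hoxa7 follows the medium in both genotypes.

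Loss of Nat1 in 2i, where the baseline is a set of arrays not used in the comparison of genotypes in LIF, gave smaller differences. Cluster C was higher in Nat1-null cells, and the anterior genes of cluster A were lower. Of 33 members, 20 passed, 12 higher and 8 lower (60.6%, against 43.6% of all genes tested, with 21.0% higher and 22.6% lower). The median absolute difference was 0.65 against 0.29 over all genes. By at least 2-fold, 8 members passed as higher and 2 as lower, against 10.9% of all genes in either direction. Without scaling between arrays the split of all Hox calls was 16 higher and 3 lower, since the median of all genes then moved to 0.22. Of the members of cluster C, 6 of 8 passed as higher, Hoxc5 among them with both groups at background, and 0 as lower, and of the 4 tested members of cluster D, 0 rose and 2 fell. By number, members 1 to 4 gave 1 rise and 5 falls, members 5 to 8 gave 4 and 2, and members 9 to 13 gave 7 and 1. From wild-type 2i to Nat1-null 2i, summed fibroblast markers went from 44.8 to 50.6 down to 29.3 to 36. Neural progenitor markers went from 9.58 to 10.75 down to 3.32 to 3.77, and trophoblast markers from 23.6 to 26 up to 31.2 to 31.85. The part of these cell types in the Hox differences here was not tested.

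Hoxc6 read -3.27, -3.37 and -3.31 in wild-type 2i and -0.99, -0.97 and -1.13 in Nat1-null 2i, higher by 2.29 ± 0.27 (4.88-fold, adjusted p = 9.9e-05). Hoxc9 read -2.73, -2.76 and -2.57 against -0.62, -0.33 and -0.67, higher by 2.15. Hoxb13 read 2.80, 3.07 and 2.94 in Nat1-null 2i, higher by 2.29 than in wild-type 2i. For all 3 the groups were far apart and above background throughout. Hoxc10, a lumbar gene, was higher by 1.71, Hoxc11 by 1.67, Hoxa11 by 1.19 and Hoxa10 by 0.89. Hoxa3 was lower by 1.43, with -0.79, -0.72 and -0.62 in Nat1-null 2i, and Hoxb2 by 1.21, at least 1.89-fold since it was at background on all Nat1-null 2i arrays. Hoxd13 was lower by 0.79, against the direction of Hoxb13 and Hoxc13.

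Several calls ended when 1 array was left out. For Hoxa5, Hoxb4, Hoxc5 and Hoxd8 the adjusted p with all arrays was already 0.0367 to 0.0476 (limma). Hoxb5 was at background on all wild-type 2i arrays and read -4.80, -6.80 and -3.08 on the Nat1-null 2i arrays, of which 1 was above background. It passed with a fitted difference of 2.42, of which at least 1.55-fold is measured. It was 1.51 without Nat1-null 2i replicate 3, and without wild-type 2i replicate 1 or 2 or Nat1-null 2i replicate 1 its adjusted p reached 0.0691. Hoxa2 (-0.85) became -0.64 with an adjusted p of 0.0542 without Nat1-null 2i replicate 3. Hoxc5 was at background on all 6 arrays compared, so its fitted 1.25 is no measured rise. It did not pass without any wild-type replicate or Nat1-null 2i replicate 1 or 2, with values of 0.93 to 1.35, nor did Hoxa5 (-0.66) without any wild-type replicate or Nat1-null 2i replicate 1 or 3, with -0.70 to -0.58. Hoxb4 (0.51) did not pass without wild-type LIF replicate 1 or 2 or any 2i replicate of either genotype, with 0.42 to 0.57. Hoxd8 (-0.69) did not pass without any array other than Nat1-null LIF replicates 2 and 3, with -0.79 to -0.64. The adjusted p of these reached 0.13.

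In Nat1-null cells 2i raised Hox genes and lowered almost none, and all 6 arrays of this comparison were on the same slide. Only Nat1-null LIF replicate 3 shared its slide row with the 2i arrays. Of 33 members, 18 passed, 17 higher and 1 lower (54.5%, against 37.1% of all genes tested, with 21.4% higher and 15.8% lower). Without scaling between arrays the split was 16 higher and 3 lower. The median absolute difference was 0.71 against 0.25. Members 9 to 13 gave 10 rises of 13 tested and 0 falls, members 5 to 8 gave 3 rises of 10, and members 1 to 4 gave 4 rises and 1 fall. Hoxa4, at -0.59, was the fall.

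Hoxc6 read -4.57, -4.01 and -5.38 in Nat1-null LIF and -0.99, -0.97 and -1.13 in Nat1-null 2i, the largest rise at 3.62 ± 0.27 (12.3-fold, adjusted p = 7.8e-06). Hoxc9 read -3.81, -2.84 and -4.28 in LIF and rose 8.59-fold, and Hoxc11 rose by 2.85 to -0.47, -0.51 and -0.61. Hoxa10 rose by 2.34 to -0.52, -0.20 and -0.29, and Hoxa11 by 2.27 to -1.10, -0.67 and -0.77. Hoxc4 read -1.86, -1.13 and -2.26 in LIF against 0.46, 0.40 and 0.29 in 2i, a rise of 2.13. Hoxa9 read -4.19, -4.29 and -4.37 in LIF and -2.47, -2.18 and -2.58 in 2i, a rise of 1.87. In each of these genes every 2i array was above every LIF array. Hoxc6, Hoxc9 and Hoxa9 were above background on only 2 of the 3 Nat1-null LIF arrays.

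Hoxa7 rose by 2.19, Hoxb13 by 1.91, Hoxd4 by at least 1.89-fold from background, Hoxc10 by 1.57, Hoxb9 by 1.12 and Hoxc13 by 0.69. Hoxb4 (0.50) passed although its groups overlapped, and its call ended without any array other than Nat1-null LIF replicate 2, with values of 0.35 to 0.56. Hoxd8 (0.94) had an adjusted p of 0.0518 without Nat1-null LIF replicate 1. None of Hoxb1, Hoxb3, Hoxb6 and Hoxb8 was above background on all arrays of either medium, and none of them passed. Hoxb1 passed at 1.02 (adjusted p = 0.0105) without Nat1-null LIF replicate 3, Hoxb6 at -0.88 (0.034) without wild-type 2i replicate 2 and Hoxb8 at -0.46 (0.0468) without Nat1-null 2i replicate 1. The negative controls were out of range on all 3 Nat1-null 2i arrays and on 1 of the 3 LIF arrays. Taking each array's negative-control mean off the signal, a setting chosen after the data were seen, gave 16 higher and 2 lower calls, where Hoxb4 no longer passed (adjusted p = 0.0575) and Hoxb8 passed at -0.69 (0.0336). It gave Hoxc6 a rise of 3.26, Hoxc9 2.87 and Hoxa7 2.14. With a normexp background correction, which compresses dim values, these rises were 2.27, 2.09 and 2.04. Fibroblast markers summed to 29.3 to 36 in Nat1-null 2i, against 23.4 to 27.1 in Nat1-null LIF, and trophoblast markers to 31.2 to 31.85 against 10.9 to 12.5. Neural progenitor markers were lower in 2i, at 3.32 to 3.77 against 6.23 to 8.24. The part of these in the rises was not tested.

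Whether 2i acted differently in the 2 genotypes was tested as an interaction, the log2 difference of 2i in Nat1-null cells minus that in wild-type cells. For anterior and trunk genes of cluster B the value was positive, and for most posterior genes it was negative. Of 33 members, 23 passed, 15 above 0 and 8 below (69.7%, against 49.7% of all genes tested, with 23.6% above 0 and 26.2% below). Of the 20 members numbered 1 to 8, 13 were above 0, 0 below and 7 did not pass. Of the 13 numbered 9 to 13, 2 were above 0 and 8 below.

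Positive values came from several patterns. Hoxb2 fell by 4.79 in wild-type cells and had a difference of -0.63 that did not pass in Nat1-null cells (interaction 4.16, adjusted p = 5.3e-06), and Hoxb4 had -2.06 against 0.50 (interaction 2.56). Without Nat1-null LIF replicate 3 the Nat1-null difference of Hoxb2 passed at -0.86 (adjusted p = 0.0119). Hoxb1, Hoxb3 and Hoxb8 fell in wild-type cells, while in Nat1-null cells both media were at background, so their interaction values of 5.65, 5.12 and 3.97 include differences that could not be measured. Hoxc6 and Hoxb4 passed in opposite directions in the genotypes, Hoxc6 with -0.79 in wild-type cells and 3.62 in Nat1-null cells (interaction 4.42, adjusted p = 1.1e-05). Hoxb9 and Hoxc9 rose in both genotypes, and more in Nat1-null cells, Hoxb9 by 0.38 and 1.12. Hoxc4 (0.41) and Hoxd4 (-0.42) had differences that did not pass in wild-type cells and rose in Nat1-null cells.

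The clearest negative value was that of Hoxc13, whose rise was 3.97 in wild-type cells and 0.69 in Nat1-null cells (interaction -3.27, adjusted p = 1.2e-08). Hoxd13 followed with 1.87 against 0.28 (interaction -1.59). Hoxa10 and Hoxa11 had interaction values of -2.56 and -2.78, with wild-type LIF at background. A normexp background correction, which compresses dim values, took these to -0.62 and -0.44 and that of Hoxc11 from -1.94 to 0.10, so their size depends on how background is removed, while Hoxc13 kept -2.53. It also took the positive value of Hoxc6 from 4.42 to 2.59. Hoxb13 passed at -0.99, was -0.62 without Nat1-null LIF replicate 2, and did not pass without any replicate of wild-type LIF or Nat1-null 2i or without wild-type 2i replicate 1 or 3 (-1.05 to -0.90, adjusted p up to 0.102).

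Hoxa7 rose alike in both genotypes. Its difference was 2.21 ± 0.07 in wild-type and 2.19 ± 0.07 in Nat1-null cells, with an interaction of -0.02 and a 95% interval of -0.25 to 0.22. Without scaling between arrays the interaction was 0.36 and passed (adjusted p = 0.044), next to a median of 0.34 over all genes. Hoxc10 (interaction -0.44), Hoxa9 (1.05) and Hoxd8 (-0.63) did not pass, which does not show that they responded alike. Hoxd8 passed at -0.88 (adjusted p = 0.0376) without Nat1-null LIF replicate 3.

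**Figure D4:**
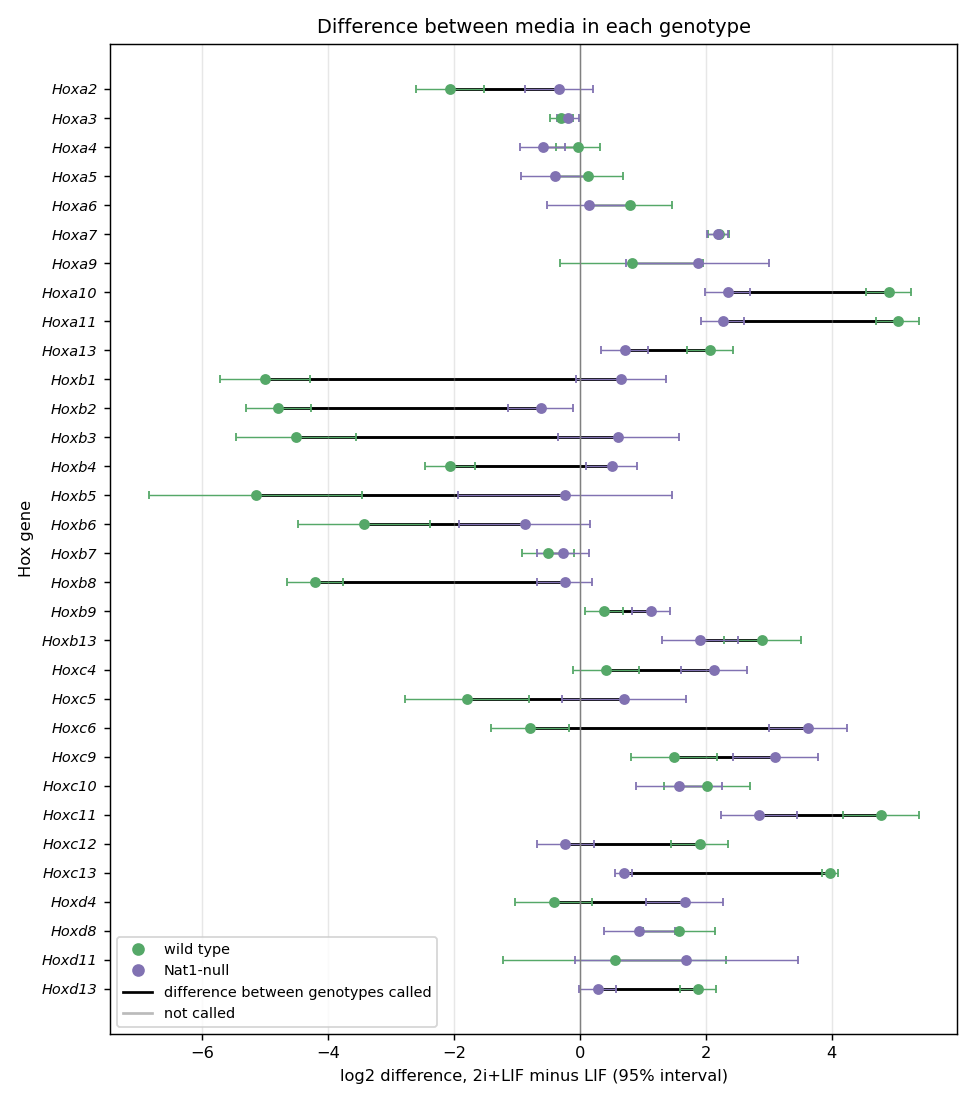
Log2 difference of 2i+LIF minus LIF for 32 tested Hox genes in wild-type cells and in Nat1-null cells, with 95% intervals; a black line joins the values where the difference between genotypes passed adjusted p below 0.05. Hoxb genes numbered 1 to 8 apart from Hoxb7 are at -2.06 or lower in wild-type cells and between -0.88 and 0.65 in Nat1-null cells, and the Hoxa7 values lie on each other at 2.21 and 2.19.

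Genes that regulate Hox genes or work with their proteins were counted from lists. Each count stands beside the share over all genes tested, 35.0% higher and 27.2% lower with 2i in wild-type cells and 33.9% higher and 32.9% lower with Nat1 loss in LIF. Cdx1, a Wnt-responsive activator of trunk and posterior Hox genes, read -1.76, -1.74 and -1.79 in wild-type LIF and 4.22, 4.20 and 4.15 in wild-type 2i. It read -0.63, 0.12 and -0.59 in Nat1-null LIF and 5.20, 4.80 and 5.15 in Nat1-null 2i. Its rise in 2i was thus 5.95 and 5.42, and like that of Hoxa7 it did not pass as different between genotypes (interaction -0.53, adjusted p = 0.113). Cdx2 and Cdx4 were not tested because they were above background on at most 1 array of a group. Gsx2, a ParaHox gene of the forebrain, was at background in wild-type LIF and was at least 7.08-fold higher in wild-type 2i and at least 2.70-fold higher in Nat1-null LIF, but its difference of 0.22 between media in Nat1-null cells did not pass.

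Hoxa11os, the transcript antisense to Hoxa11, was the only tested RNA of the 17 noncoding Hox cluster RNAs listed, of which 2 were on the array. It read -3.91 ± 0.22 and 0.13 ± 0.06 in wild-type cells in LIF and 2i, and -0.71 ± 0.37 and 1.28 ± 0.33 in the mutant cells. Its order of groups was the one of Hoxa11, with differences of 4.04 in wild-type 2i and 3.20 in Nat1-null LIF. The 2 are measured by separate probes.

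Of 9 TALE homeodomain proteins, which bind DNA together with Hox proteins, 3 rose and 5 fell with 2i in wild-type cells, and 3 were higher and 4 lower with Nat1 loss in LIF. That is 88.9% and 77.8% called, against 62.2% and 66.8% of all genes. Meis1 fell by 3.31 and 4.26 in these comparisons and Pknox2 by 3.15 and 3.27. In Nat1-null cells 2i raised 1 of the 9, Pknox2, by 1.43, and lowered 1, which is 22.2% called against 37.1% of all genes.

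Of 17 tested genes of retinoic acid signalling and metabolism, 2 rose and 10 fell with 2i in wild-type cells, and 3 were higher and 13 lower with Nat1 loss in LIF. That is 70.6% and 94.1% called, against 62.2% and 66.8% of all genes. Crabp2, a retinoic acid carrier, fell from 5.72 ± 0.04 in wild-type LIF to 1.44 ± 0.03 in wild-type 2i and stood at 1.23 ± 0.25 in Nat1-null LIF. Crabp1 fell by 2.11 and 4.68 in these comparisons, and Stra6, a retinol transporter, fell too, with differences of -3.33 and -4.75. Cyp26a1, which degrades retinoic acid, fell by 0.87 and 1.46. Their list medians were -0.87 and -1.85, against 0.06 and 0.02 over all genes tested.

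**Figure D5:**
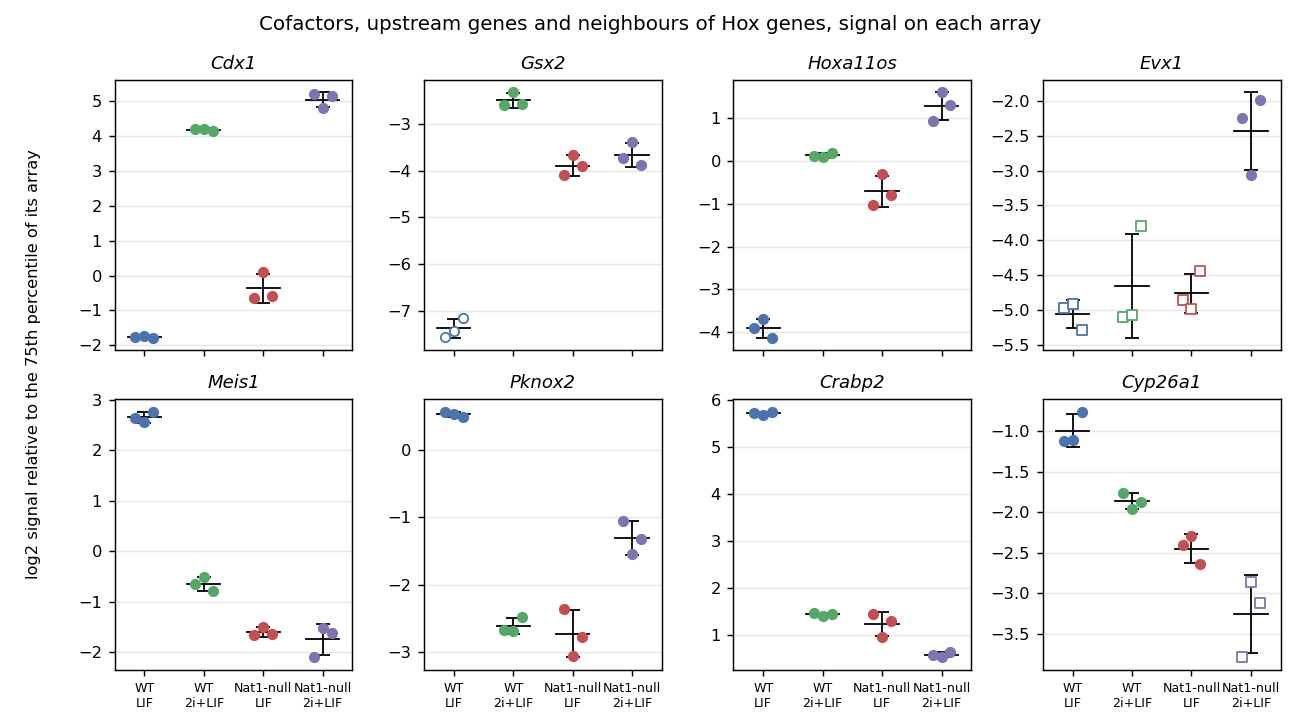
Log2 signal, with the 75th percentile of the array at 0, for 8 genes that regulate, accompany or neighbour Hox genes, on each array, with bars for mean and SD of 3 arrays and the same filled and open symbols. Cdx1 is high in 2i in both genotypes, while Meis1, Pknox2 and Crabp2 are high in wild-type LIF.

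Of 30 Polycomb group genes, 10 rose and 6 fell with 2i in wild-type cells, and 17 were higher and 8 lower with Nat1 loss in LIF. That is 53.3% and 83.3% called, against 62.2% and 66.8% of all genes. Cbx6 was higher by 1.24 and 2.00 in these comparisons, and Yaf2 and Phc2 were lower, by 0.96 and 1.54 in 2i and 2.64 and 1.72 in Nat1-null cells. Of 12 Trithorax and demethylase genes, which counter Polycomb, 7 rose and 2 fell with 2i, and 9 were higher and 2 lower in Nat1-null LIF, 75% and 91.7% called. Wdr5 was higher by 1.18 and 1.5. Medians of the Polycomb list were 0.04 and 0.42.

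The genes that flank the clusters moved in both directions. Of 23 tested, 9 rose and 8 fell with 2i in wild-type cells, with a median of 0.02, and 8 were higher and 9 lower with Nat1 loss in LIF, with a median of -0.0026. That is 73.9% called in both, against 62.2% and 66.8% of all genes. Evx1, a posterior homeobox gene beside Hoxa13, was above background on all 3 arrays only in Nat1-null 2i, where it was higher by 2.23 than in wild-type 2i. Among other patterning homeobox genes, Tlx2 was higher by 2.67 with 2i in wild-type cells and by 3.68 with Nat1 loss in LIF. Meox1 was above background on all wild-type LIF arrays and on none of the others, at least 28.9-fold lower in wild-type 2i and at least 20.8-fold lower in Nat1-null LIF.

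Most members were measured by 1 probe, and where there were several the brightest was used. The other probes of Hoxa13, Hoxb3 and Hoxd11 did not pass the background filter, so little is known of agreement between probes there. The other probe of Hoxb3 was above background on 2 wild-type LIF arrays only, and that of Hoxd11 on 2 wild-type 2i arrays only. Both probes of Hoxa9 passed. From wild-type LIF to Nat1-null LIF the brighter probe of Hoxa9 went from -3.59 to -4.28 and the other from -4.86 to -4.27, so they disagree in direction there, while both were higher in 2i in each genotype. Annotated spans of 10 members overlap that of another member, among them Hoxa3 with Hoxa4, Hoxa5 and Hoxa6, and Hoxb3 with Hoxb4, so a probe of one may lie within a longer transcript of the other.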

How the data were processed

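Per the labels, total RNA was labelled with Cy3 and hybridised to 12 one-colour arrays. The deposited scanner files hold intensity values made by Agilent Feature Extraction 10.7.3.1, per the file headers, which subtracts background and does not scale between arrays; their build is mm9. The series table deposited by the authors gives that signal on a log2 scale minus the 75th percentile of each array, and it correlated at 1 with values recomputed here. Control and outlier spots were left out, spots of a probe averaged, log2 of the processed signal taken and the 75th percentile of each array subtracted. Probes were named through RefSeq accessions and an annotation of GRCm38.p6, which named 27656 of 55681. Of 54229 probes with a value on all arrays, 33286 were kept, for which 1 group or more had every array well above background. The brightest probe stood for a gene, which left 24457 genes, 15422 with a symbol. limma 3.58.1 in R 4.3.3 fitted 4 group means, with Benjamini-Hochberg adjustment over all genes and two-sided calls at adjusted p below 0.05. It was tested on simulated data. "At background" means not well above it on any array of a group. A fold against such a group used, on each array, the lowest signal well above background or the gene's own value if that was higher, and appears as "at least". Each p-value here is limma's unless named. Summaries were made with pandas 2.3.3 and numpy 2.4.6 in Python 3.11.15, and figures with matplotlib 3.10.9.

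The members, gene lists and tests were chosen with earlier results of these data known. Every member is counted, but the values of 1 member and of 1 listed gene are not reported here. Values on each array are given for up to 25 members called with at least a 2-fold difference, and from each list up to 4 called genes with the largest differences are named, with Eif4g2, Cdx1, Cdx2, Cdx4 and Cyp26a1 whatever their values; Gsx2, Hoxa11os and Evx1 are members of such lists. Replicate numbers did not pair the samples: of 18 pairs with the same number in different groups, residuals correlated above 0.1 in 1 (0.301). Alternatives were another background correction (normexp, on median signals because the files hold no mean signal, offset 50), quantile normalization, no scaling, the authors' table, other filters and probe rules, other variance models, array weights, a replicate block and each array left out. Precision is limited by how many arrays there are. Residual degrees of freedom were 8.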

Additional observations from a re-analysis of the deposited data

Results flagged for a closer look

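The difference of 2i+LIF minus LIF differed between the genotypes, by limma's test of the interaction, for 23 of 33 tested members. In cluster A the value (Nat1-null minus wild type, log2) was 1.73 for Hoxa2, -2.56 for Hoxa10, -2.78 for Hoxa11 and -1.36 for Hoxa13. In cluster B it was 5.65 for Hoxb1, 4.16 for Hoxb2, 5.12 for Hoxb3, 2.56 for Hoxb4, 4.92 for Hoxb5, 2.55 for Hoxb6, 3.97 for Hoxb8, 0.74 for Hoxb9 and -0.99 for Hoxb13. In cluster C it was 1.72 for Hoxc4, 2.50 for Hoxc5, 4.42 for Hoxc6, 1.61 for Hoxc9, -1.94 for Hoxc11, -2.14 for Hoxc12 and -3.27 for Hoxc13. In cluster D it was 2.08 for Hoxd4 and -1.59 for Hoxd13. All 4 genes numbered 13 were below 0. Some group was at background on all its arrays for Hoxa10, Hoxa11, Hoxa13, Hoxb1, Hoxb2, Hoxb3, Hoxb5, Hoxb6, Hoxb8, Hoxc5, Hoxc11, Hoxc12 and Hoxd4, so their values are fitted and their size is not measured. In cluster B, Hoxb7 (0.23) did not pass. Wild-type and Nat1-null arrays were on different slides.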

How the results depend on the processing

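The counts of 27, 25, 20, 18 and 23 Hox genes called for 2i in wild-type cells, Nat1 loss in LIF, Nat1 loss in 2i, 2i in Nat1-null cells and the interaction stayed within 1.5 times under every alternative run but 1. With only probes well above background on all 12 arrays, which leaves 12 members tested, they were 10, 10, 9, 7 and 8. Without 1 array they ranged over 23 to 28, 24 to 27, 15 to 22, 16 to 19 and 22 to 25. With the replicate number as a block they were 27, 25, 18, 17 and 22. Subtracting negative controls, chosen after the data were seen, gave 27, 26, 18, 18 and 23. Without scaling, the median of all genes was -0.50, -0.14, 0.22, -0.14 and 0.34, and calls for Nat1 loss in 2i split into 16 higher and 3 lower. With normexp that split was 9 and 9. Among differences that passed before or after the change, directions turned for Hoxb9 (2i in wild-type cells, -0.19) and Hoxa7 (interaction, 0.36) without scaling, and with normexp for Hoxa4 (2i in wild-type cells, 0.20), Hoxb1 and Hoxb3 (Nat1 loss in 2i, -0.23 and -0.25) and Hoxc11 (interaction, 0.10); the cause was not tested. Normexp also reduced differences from background, for Hoxa10 in wild-type 2i from 4.90 to 2.47 and for Hoxb5 from -5.15 to -1.59. A slide block was not run because each group lies on 1 slide. Signals near background limit what can be measured for most of cluster D and, outside wild-type LIF, for anterior genes such as Hoxb1 and Hoxb3.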
